A study of Homo sapiens with 8 samples.

Results

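The H3K9me3 signal over 9 very long human genes, CSMD1, LRP1B, CNTNAP2, MACROD2, PTPRD, DLG2, RBFOX1, CTNNA3 and FHIT, was examined in PC9, a human lung adenocarcinoma line with mutant EGFR. They were taken by name and position, with no threshold on the H3K9me3 values. Their bodies on hg19, given to 0.01 Mb, were 1.5 to 2.31 Mb long and 17.77 Mb in all. Enriched intervals overlapping a body by at least 1 bp numbered 290 of 124708 in the 3 H3K9me3 lists, namely 47 of 23842 (parental), 132 of 47866 (persisters) and 111 of 53000 (persisters given TSA). Parental PC9 received no drug. The persisters, called DTP, had survived 8 days of erlotinib, which blocks the EGFR kinase, at 1 uM. The DTP + TSA cells were persisters exposed on day 8 to the histone deacetylase inhibitor trichostatin A (TSA) at 50 nM for 5 hours. All came from 1 cell line with 1 H3K9me3 library per state, so differences could not be set against replicate error and none was tested. Intervals in brackets are exact 95% intervals and cover counting error only. They are Clopper-Pearson for shares and, conditional on the sum, for ratios of counts, and Poisson for counts. The other samples, 2 H3K4me3 and 3 input libraries, were not analysed here. Sequencing depth is unknown, and the DNA copy number of the genes was not examined. Outside the 9 bodies the lists covered 4.07%, 5.34% and 5.81% of hg19 in parental, DTP and DTP + TSA.

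H3K9me3 is written by the SUV39H and SETDB1 methyltransferases and bound by HP1 proteins, and it marks constitutive heterochromatin: satellites, zinc finger gene clusters and many transposable elements. The longest human genes consist almost wholly of introns, lie in gene-poor chromatin that replicates late, and include several common fragile sites. Most of the 9 are known from neurons. CSMD1 is a membrane protein of the complement control family, LRP1B an endocytic receptor related to the LDL receptor, CNTNAP2 a neurexin-like protein that gathers potassium channels on axons, PTPRD a receptor tyrosine phosphatase that organises synapses, DLG2 a postsynaptic scaffold and RBFOX1 a splicing factor of neurons. MACROD2, an enzyme that removes ADP-ribose from proteins, CTNNA3, an alpha-catenin best known from heart, and FHIT, a nucleotide hydrolase encoded across a common fragile site, are not chiefly neuronal, so the label neuronal does not describe them. No expression values were used here.

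The bodies on hg19 were as follows. CSMD1 lies on chromosome 8 from 2.79 to 4.85 Mb (band 8p23.2), PTPRD on 9 from 8.31 to 10.61 Mb (9p24.1 to 9p23) and RBFOX1 on 16 from 6.07 to 7.76 Mb (16p13.3), all under 10 Mb from a chromosome end. CNTNAP2 lies on 7 from 145.81 to 148.12 Mb (7q35 to 7q36.1) and MACROD2 on 20 from 13.98 to 16.03 Mb (20p12.1). Farther in are LRP1B on 2 from 140.99 to 142.89 Mb (2q22.1 to 2q22.2), DLG2 on 11 from 83.17 to 85.34 Mb (11q14.1), CTNNA3 on 10 from 67.67 to 69.46 Mb (10q21.3) and FHIT on 3 from 59.74 to 61.24 Mb (3p14.2). Exons and introns on hg19 were not assigned here, so an interval is placed in a gene body only.

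The 9 bodies held little H3K9me3 in any state. The parental library covered 177 kb of them or 0.995%, the DTP library 349 kb or 1.96% and the DTP + TSA library 238 kb or 1.34%, which is 0.245, 0.368 and 0.230 times the coverage of the rest of the genome. The median body stood at 0.874%, 2.23% and 1.51%, against 2.79%, 4.68% and 4.375% for the median of 1440 consecutive windows of 2 Mb. Below those medians were 8 bodies in parental cells, with FHIT the exception, and 9 in each other library. Among intervals above the median mean signal of their own list the bodies stood lower still, at 0.122, 0.169 and 0.143 times the rest.

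The genes of 3 neuronal surface proteins and of RBFOX1 were the emptiest. In PTPRD the parental library covered 0% of the body, DTP 0.165% and DTP + TSA 0.330%. In LRP1B the values were 0%, 0.537% and 0.421%, and in CSMD1 0.155%, 0.524% and 0.553%. The splicing factor RBFOX1 was at 0%, 0.201% and 0.556%. No parental interval lay in PTPRD, LRP1B or RBFOX1, while 6 of the 1440 windows (0.417%) had none. Windows empty in all 3 libraries had been left out beforehand, which lowers that share, and the window over RBFOX1 is among the 6. In DTP, 2 windows were less covered than PTPRD or than RBFOX1, and 7 less than CSMD1 or than LRP1B. These 4 genes together held 2 parental, 19 DTP and 26 DTP + TSA intervals.

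CNTNAP2 and the scaffold gene DLG2 stood higher. CNTNAP2 was covered over 0.874%, 2.23% and 1.97% of its body, and DLG2 over 1.502%, 3.53% and 2.12%. The genes that are not chiefly neuronal, as follows, held the top place in every library. MACROD2 was at 2.60%, 3.59% and 2.26%, CTNNA3 at 0.916%, 4.04% and 1.51%, and FHIT at 3.41%, 3.12% and 2.41%. FHIT led in parental cells and in DTP + TSA, and CTNNA3 in DTP. These genes did not form a separate group: DLG2 was above CTNNA3 in parental cells and in DTP + TSA, and above FHIT in DTP. By number of intervals, neighbours in this order were not separable: the 10 parental intervals of FHIT (4.80 to 18.4) and the 16 of MACROD2 (9.15 to 25.98) had overlapping counting intervals, as had the 24 of CTNNA3 (15.4 to 35.7) and the 31 of DLG2 (21.1 to 44.0) in DTP. The 3 intervals of PTPRD in DTP (0.619 to 8.77) and the 31 of DLG2 did not overlap in this sense. Light bands hold both RBFOX1 (16p13.3) and FHIT (3p14.2), near opposite ends of the order, while DLG2 (11q14.1) and CTNNA3 (10q21.3) lie in bands of the darkest stain. LRP1B, among the emptiest, lies partly in such a band (2q22.1) and partly in a light one (2q22.2).

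**Figure D1:**
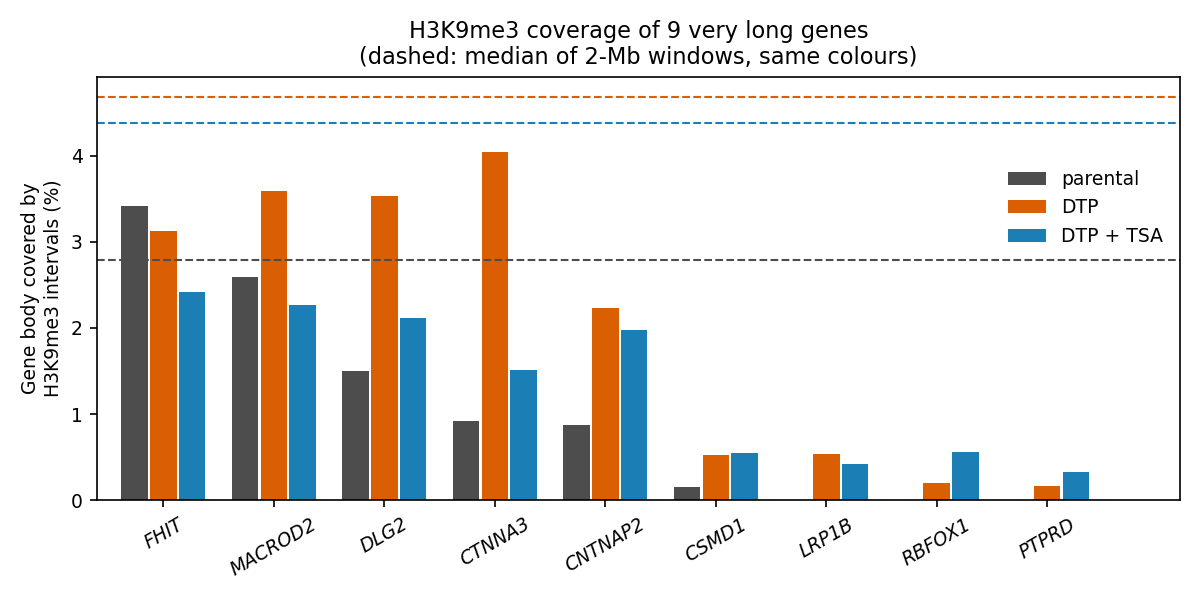
Share of each gene body covered by H3K9me3 intervals (y axis, percent) in the 3 libraries, with genes ordered by their mean over the libraries; dashed lines are the medians of 2-Mb windows. CSMD1, LRP1B, RBFOX1 and PTPRD stay under 0.56% in every library, and the FHIT bar of parental cells, at 3.41%, is the only one above its dashed line.

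Each body was less covered than the DNA beside it. With flanks of 1 body length on each side, all 9 bodies were below their flanks in all 3 libraries, so in 27 of 27 cases, with body minus flanks between -8.15 and -0.0726 percentage points and at -2.47 at the median. The 27 cases are the same 9 genes seen in 3 libraries, so they are not independent. Of the 2-Mb windows of the genome, 55.8%, 53.3% and 53.8% (parental, DTP, DTP + TSA) were below their own flanks. No such share is given here for sparse windows alone. The largest gap was at CSMD1 in DTP + TSA, with 0.553% in the body and 8.70% in its flanks, 15.5% on the side of the chromosome end and 1.86% on the other. LRP1B in parental cells had 0% against 5.28%. The smallest gap was CTNNA3 in DTP, at 4.04% against 4.12%. The gap did not hold on both sides at every gene. Bodies below each of their 2 flanks numbered 7, 5 and 8 in the same order of libraries, where 30.7%, 30.4% and 29.4% of windows were below each of theirs. CTNNA3 in DTP, for example, had 4.79% on its lower side and 3.44% on its upper side. Flank lengths of 0.5 or 2 bodies, chosen after seeing the data, gave 9 of 9 in each library as well, where 50.2%, 50.5% and 50.0% of windows were below flanks of 0.5 window lengths and 57.9%, 54.2% and 54.2% below flanks of 2.

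**Figure D2:**
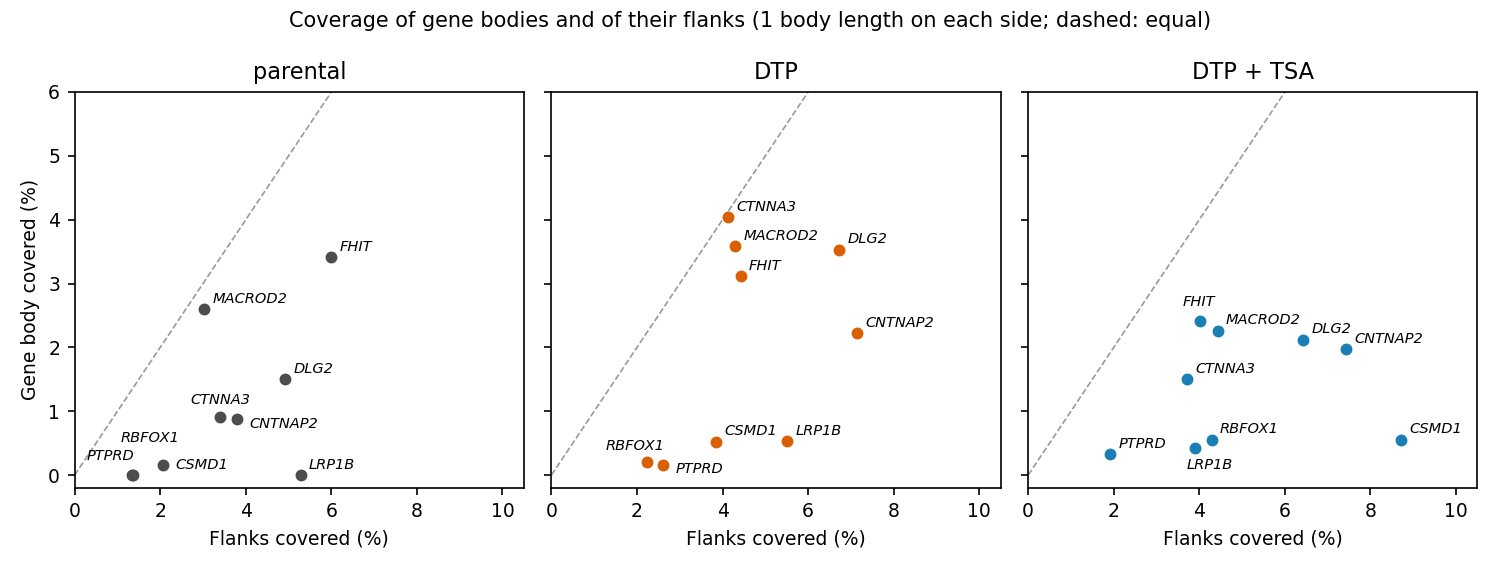
Coverage of each gene body (y axis, percent) against that of its flanks (x axis, percent), 1 point per gene, 1 panel per library; the dashed line marks equal coverage. All 27 points lie below the line, CTNNA3 in DTP closest to it at 4.04% against 4.12%.

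The intervals inside the genes were shorter at the median than those elsewhere. Their median length was 3400, 2200 and 1800 bp (parental, DTP, DTP + TSA), against 3800, 2400 and 2400 bp elsewhere. Up to 2 kb long were 13 of 47 (27.7%), 65 of 132 (49.2%) and 72 of 111 (64.9%), against 16.5%, 38.5% and 41.9% elsewhere. Counting intervals for these shares and lengths in other sparse regions are not given here. Whether short intervals are particular to these genes was thus not tested. Over 10 kb long were 1 in parental cells, in FHIT, and 1 in DTP, in MACROD2. The share over 10 kb elsewhere is not given here, so these counts are not read as low. The median mean signal, the authors' value averaged over an interval, was 7.56, 8.70 and 9.55 inside the genes and 8.22, 10.34 and 11.15 elsewhere in the same lists.

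Long stretches carried no interval in any library. In LRP1B this was chr2:141586201-142622600, 1036 kb or 54.5% of the body. In PTPRD it was chr9:8859601-9716200 (857 kb), and in FHIT chr3:59850001-60428200 (578 kb). The other genes had 266 kb (DLG2) to 478 kb (CSMD1). No such lengths are given for other sparse regions, so whether these are longer was not tested. Where signal was present it could be strong. The highest mean signal in DTP, 72.7, and in DTP + TSA, 106, belonged to the same place near the 3′ end of CNTNAP2, chr7:148024801-148029000 in DTP and chr7:148025201-148029000 in DTP + TSA. The parental interval there, chr7:148021001-148030400, was the longest in CNTNAP2 at 9.4 kb, with a mean of 58.1. The highest parental mean, 65.3, was at chr8:3380601-3382800 in CSMD1. It had a partner with a mean of 73.2 in DTP + TSA, chr8:3380801-3382400, and none in DTP.

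**Figure D3:**
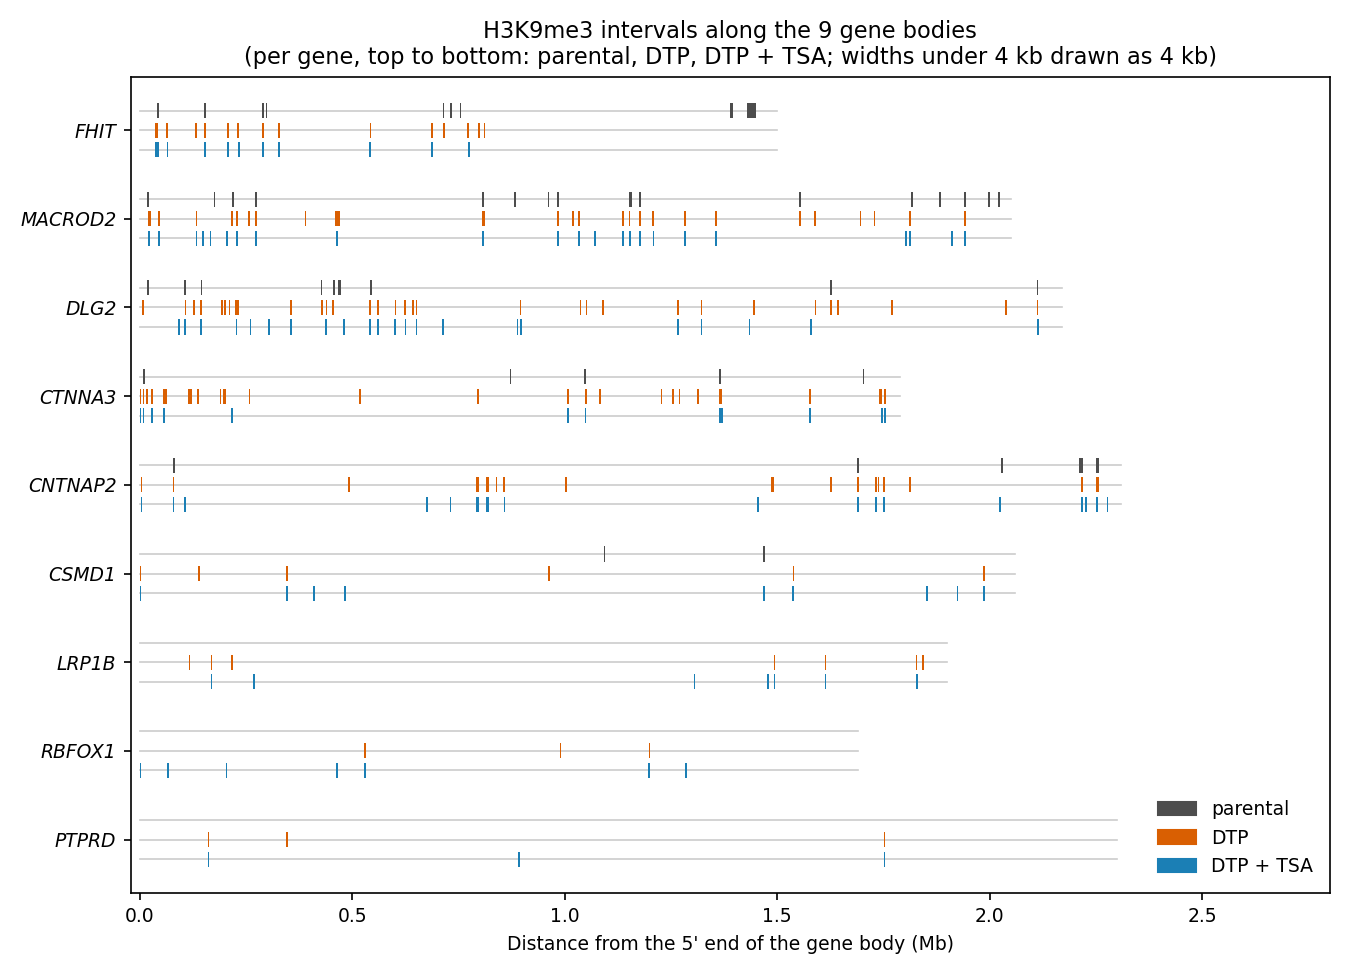
Intervals along the 9 gene bodies, drawn from the 5′ end (x axis, Mb), with parental, DTP and DTP + TSA from top to bottom in each gene. LRP1B, RBFOX1 and PTPRD have empty parental lines, LRP1B has a gap of 1036 kb, and the parental intervals at the 3′ end of FHIT have no counterpart in the other libraries.

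Persisters that had survived erlotinib were compared with parental cells. In DTP 8 of 9 bodies had a larger covered length and FHIT a smaller one, where 81.9% of 2-Mb windows were higher and 17.6% lower. At least 1.5 times the parental length was reached by 7 of 9, where 54.9% of windows did so, and none was lower by as much, where 6.11% of windows were. Among those 7, LRP1B, PTPRD and RBFOX1 are listed at 0 in parental cells and stood at 10.2, 3.8 and 3.4 kb in DTP. CTNNA3 had 16.4 kb in parental cells and 72.4 kb in DTP (4.41 times), and CSMD1 had 3.2 and 10.8 kb (3.375 times). CNTNAP2 had 20.2 and 51.4 kb (2.54 times), and DLG2 32.6 and 76.6 kb (2.35 times). MACROD2, at 53.2 and 73.6 kb (1.38 times), and FHIT, at 51.2 and 46.8 kb (0.914 times), passed in neither direction. MACROD2 and FHIT were also the 2 best covered bodies in parental cells. The 9 bodies together had 1.97 times the parental length and 2.81 times the number of intervals (2.00 to 4.01), against 1.31 and 2.01 in the rest of the genome. Sparse regions had ratios of this size in general: windows with a mean coverage of 1 to 2% over the 3 libraries had 2.45 times, and those of 2 to 4% had 1.84 times. With the same number of the strongest intervals in each list the ratio over the 9 bodies was 0.492, and 0.708 in the rest of the genome, which turns the direction. How much the different lengths of the lists account for was not tested.

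Most DTP intervals in the genes had no parental partner. Of the 132, 27 or 20.5% (13.9 to 28.3) overlapped a parental interval, against 34.3% (33.8 to 34.7) elsewhere. Windows under 2% mean coverage gave 19.9% (18.6 to 21.3), so the share in the genes was near that of other sparse regions. In the opposite direction, 27 of 47 parental intervals or 57.4% (42.2 to 71.7) had a partner in DTP, against 64.1% elsewhere. That share was 29.4% for intervals above the median mean signal of their list and 21.3% with equal numbers of the strongest. No DTP interval overlapped a parental one in CSMD1, while 9 of 26 did in MACROD2, 7 of 31 in DLG2, 4 of 18 in CNTNAP2, 4 of 14 in FHIT and 3 of 24 in CTNNA3. Within FHIT 4 of 10 parental intervals had a partner in DTP, and those in the 3′ part had none. Split into 3 equal parts, FHIT had 15.8, 10.6 and 24.8 kb covered from 5′ to 3′ in parental cells and 34.8, 12.0 and 0 kb in DTP, and the last part stayed at 0 kb in DTP + TSA. The longest interval in any of the genes, chr3:59789801-59803000 (13.2 kb, mean signal 6.96), lay in that last part and had no partner in either other library. In CTNNA3 the first part had 2.4 kb in parental cells and 35.6 kb in DTP, and the last 5.6 and 27.6 kb. Over the 9 genes the first, middle and last parts held 61.4, 36.6 and 78.8 kb in parental cells and 176, 83.0 and 90.4 kb in DTP.

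**Figure D4:**
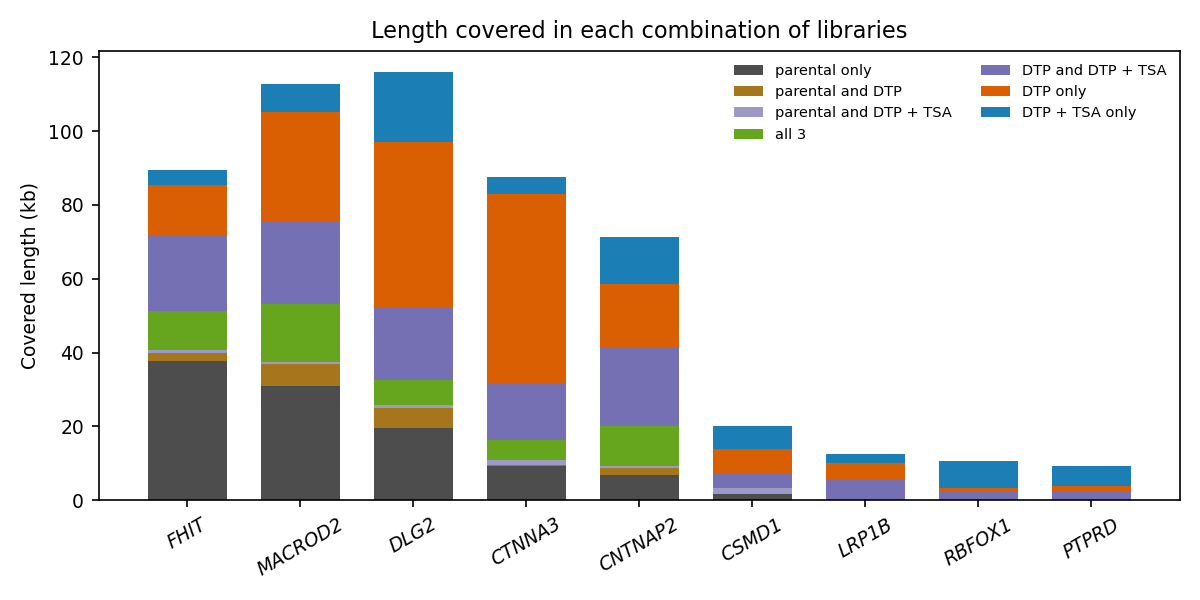
Length in kb (y axis) covered in each combination of libraries, stacked per gene. DTP only is the largest class in CTNNA3 (51.2 kb) and DLG2 (45.0 kb), parental only in FHIT (37.8 kb) and MACROD2 (31.0 kb), and CSMD1, LRP1B, RBFOX1 and PTPRD have no length shared by all 3.

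Persisters with and without TSA for 5 hours were compared next. In DTP + TSA the covered length was smaller than in DTP in 6 of 9 bodies and larger in 3, where 63.0% of windows were lower and 36.9% higher. CTNNA3 was at 27.0 kb against 72.4 kb in DTP (0.373 times), DLG2 at 46.0 against 76.6 kb (0.601 times) and MACROD2 at 46.4 against 73.6 kb (0.630 times). These 3 were lower by at least 1.5 times, as were 13.6% of windows. FHIT (0.774 times), LRP1B (0.784 times) and CNTNAP2 (0.887 times) were lower by less. RBFOX1 had 9.4 against 3.4 kb (2.76 times) and PTPRD 7.6 against 3.8 kb (2.00 times), both at least 1.5 times higher, as were 14.6% of windows, and CSMD1 had 11.4 against 10.8 kb. Over the 9 bodies the ratio was 0.681 in length and 0.841 (0.647 to 1.09) in number of intervals, against 1.09 and 1.11 in the rest of the genome. The number thus differed by less than its counting error. The median interval was 1800 bp long after TSA and 2200 bp in DTP.

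The 3 bodies with more coverage after TSA are the 3 that lie within 10 Mb of a chromosome end: CSMD1 at 2.79 Mb, RBFOX1 at 6.07 Mb and PTPRD at 8.31 Mb. Genome-wide, 21.3% of windows within 10 Mb of an end and 69.99% of those farther in were lower in DTP + TSA than in DTP. The 10 Mb distance was chosen after seeing the data. The outer bodies had 12 intervals in DTP and 19 in DTP + TSA, a ratio of 1.58 (0.730 to 3.58) that counting error does not separate from 1. The 6 inner bodies had 120 and 92 intervals, a ratio of 0.767 (0.578 to 1.01) that counting error does not separate from 1 either. Their length was 0.632 times that in DTP, against 0.931 times in inner windows. In windows whose centre lies in the darkest bands (gpos100) the ratio was 0.744, and in windows of 1 to 2% mean coverage 0.828.

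**Figure D5:**
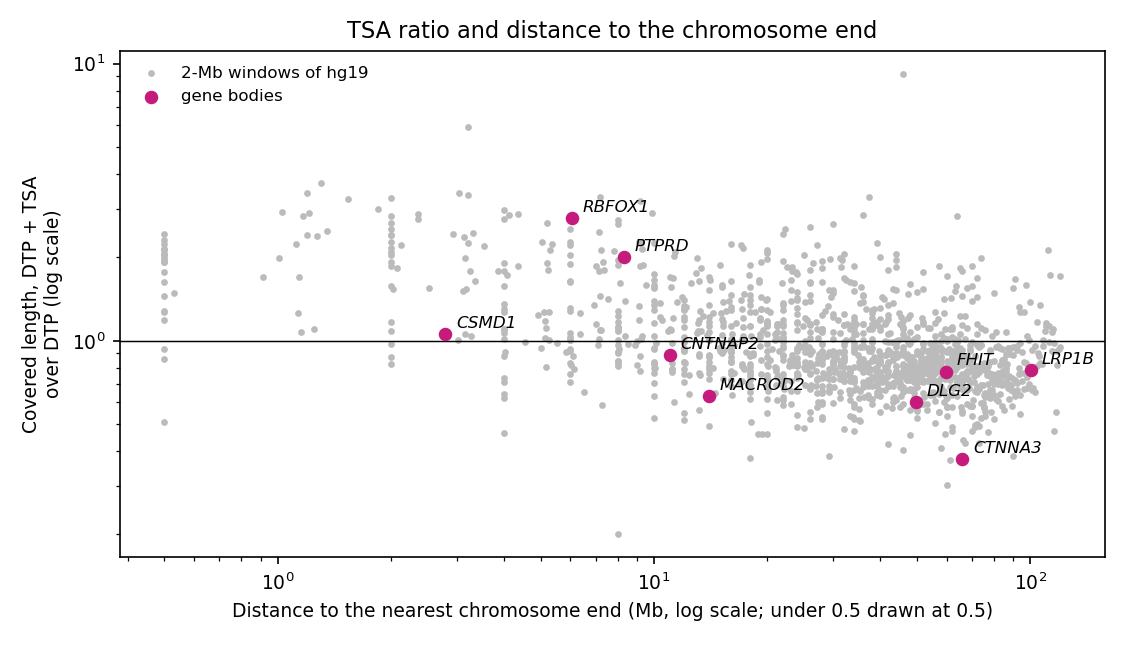
Covered length in DTP + TSA over that in DTP (y axis, log scale) against the distance to the nearest chromosome end (x axis, Mb, log scale), for the gene bodies (large points) and 2-Mb windows with coverage in both libraries (small points). CSMD1, RBFOX1 and PTPRD lie above the line of equal length, and CTNNA3 lies lowest of the genes at 0.373.

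Many DTP intervals in these genes had no partner after TSA. Of the 132, 73 or 55.3% (46.4 to 63.96) overlapped a DTP + TSA interval, against 71.6% elsewhere and 57.2% (55.5 to 58.8) in windows under 2% mean coverage. In the reverse direction, 75 of the 111 found after TSA, or 67.6% (58.0 to 76.1), had a partner in DTP, against 66.3% elsewhere, and of those over 2 kb 34 of 39 or 87.2% (72.6 to 95.7) did, against 75.8% elsewhere. For the 105 DTP intervals without a parental partner the number was 52 or 49.5% (39.6 to 59.5) overlapping DTP + TSA, against 64.1% elsewhere. No such share is given here for windows under 2% mean coverage, so whether the genes differ from those was not tested. Of the 3525 DTP intervals in such windows, 703 overlapped a parental one and 1384 overlapped neither other library. Of the 105 in the genes, those found again after TSA were 7 of 21 in CTNNA3 and 10 of 24 in DLG2. They were 7 of 10 in FHIT and 10 of 17 in MACROD2. In neither other library were 53 of the 132, or 40.2% (31.7 to 49.0), against 23.6% elsewhere and 39.3% (37.6 to 40.9) in windows under 2%. Of DTP intervals over 2 kb, 20 of 67 or 29.9% (19.3 to 42.3) were in DTP alone, against 13.7% (13.3 to 14.1) elsewhere. In length, DTP alone accounted for 170 kb or 32.2% of all that was covered in any library in the genes, against 14.3% in the rest of the genome. For the share over 2 kb and this share of length, no value for sparse windows is given here. The longest DTP interval found in neither other library was chr10:69256801-69264200 in CTNNA3 (7.4 kb). DTP and DTP + TSA without parental made up 21.4%, and all 3 libraries 9.37%, against 21.6% and 18.5% elsewhere. The longest interval after TSA with no partner was chr9:9716201-9719800 in PTPRD (3.6 kb).

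Persisters given TSA were also set against parental cells. Over the 9 bodies the length was 1.34 times the parental one, against 1.43 in the rest of the genome. The number of intervals was 2.36 times the parental one (1.66 to 3.40), against 2.22. In length 7 bodies were higher and 2 lower, as were 78.8% and 21.1% of windows. At least 1.5 times was reached by 6 of 9 and by 52.9% of windows, and no body was lower by as much, against 7.71% of windows. The 6 were CSMD1 (3.56 times), CNTNAP2 (2.26 times), CTNNA3 (1.65 times) and the 3 genes listed at 0 in parental cells. MACROD2 (0.872 times) and FHIT (0.707 times) were under the parental length and DLG2 (1.41 times) above it. The pooled ratio was 0.888 without intervals up to 2 kb and 0.416 when each list was limited to as many of its strongest as the shortest list holds, both in the opposite direction, where the rest of the genome stood at 1.25 and 0.682. It was 2.29 without FHIT, CTNNA3 and MACROD2. Parental positions that were empty in DTP mostly stayed empty. Of the 20 parental intervals with no partner in DTP, 1 overlapped DTP + TSA (5.00%, 0.127 to 24.9), the strong interval in CSMD1 given above, against 18.2% (17.4 to 19.1) elsewhere. Each library enters 2 of these 3 comparisons, so they are not independent.

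Intervals lay close to the 5′ end of several genes. Within 10 kb of the 5′ end of the body lay an interval in 2 of 9 genes for the parental library, 6 for DTP and 5 for DTP + TSA, where 16.1%, 28.5% and 30.2% of all hg19 positions, and 5.92%, 14.9% and 12.8% of the positions inside these bodies, are as close to one. At the 3′ ends this was 0, 1 and 1 of 9. The 5′ ends of other genes were not examined, so whether the counts at 5′ ends are high for gene starts was not tested. Since body ends are given to 0.01 Mb, these distances are known only to that precision, and this measure was chosen after seeing the data. In CSMD1 the rounded end lay within chr8:4848201-4850200 in DTP. In DTP + TSA it lay within chr8:4849201-4852600, the longest interval of that gene at 3.4 kb. A second DTP interval, chr8:4851401-4852600, lay just outside the rounded end. Which of these intervals holds the true end cannot be told at this precision.

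In CTNNA3 the rounded 5′ end lay within chr10:69459401-69465200 in DTP and chr10:69459201-69465200 in DTP + TSA. The true end could lie outside both. A second interval just inside the body was present in all 3 libraries, with a mean signal of 10.8 (parental), 41.0 (DTP) and 47.8 (DTP + TSA). CNTNAP2 had chr7:145812401-145814600 in DTP and chr7:145812401-145814400 in DTP + TSA. Both start 2.4 kb inside the rounded end, so the true end could lie within them. The nearest parental interval was 79.4 kb away. In RBFOX1 the rounded 5′ end lay within an interval in DTP + TSA alone, chr16:6068001-6071000 (3.0 kb, mean signal 15.0). It was the longest interval of that gene, and the nearest DTP interval was 273 kb from that end. MACROD2 had an interval 3.2 to 5.0 kb outside its rounded 5′ end in each library, and FHIT and DLG2 one within 10 kb in DTP alone, at 4.2 and 7.0 kb. The nearest interval of any library was 160 kb away in PTPRD and 28.2 kb away in LRP1B.

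The promoters at these ends differ in sequence. The set of RefSeq promoters (GRCh38.p14) used here holds 7 of the 9 genes and lacks CSMD1 and LRP1B. Of each gene the start was taken whose distance to the end of the gene came nearest to the length of the hg19 body, within 7.68 kb. No coordinate was carried between builds, so the sequences show the kind of promoter and not a base-level position of an interval. Below are the 250 bases before the start for 3 genes with an interval at or near the rounded 5′ end, RBFOX1, CNTNAP2 and CTNNA3, and for PTPRD, which has none near. Capitals mark the dinucleotide CG, which reads the same on both strands.
RBFOX1, chr16:6019453-6019702, plus strand: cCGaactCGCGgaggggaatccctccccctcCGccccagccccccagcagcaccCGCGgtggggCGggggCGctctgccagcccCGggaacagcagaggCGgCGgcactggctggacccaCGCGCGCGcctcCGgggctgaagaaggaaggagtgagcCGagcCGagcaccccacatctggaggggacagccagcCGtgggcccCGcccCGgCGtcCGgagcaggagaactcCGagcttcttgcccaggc
CNTNAP2, chr7:146116551-146116800, plus strand: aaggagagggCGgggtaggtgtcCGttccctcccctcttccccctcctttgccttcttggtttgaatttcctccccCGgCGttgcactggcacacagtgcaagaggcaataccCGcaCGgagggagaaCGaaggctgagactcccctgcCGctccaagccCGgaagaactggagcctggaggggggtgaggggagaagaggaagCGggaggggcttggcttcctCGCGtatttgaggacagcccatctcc
CTNNA3, chr10:67696196-67696445, minus strand: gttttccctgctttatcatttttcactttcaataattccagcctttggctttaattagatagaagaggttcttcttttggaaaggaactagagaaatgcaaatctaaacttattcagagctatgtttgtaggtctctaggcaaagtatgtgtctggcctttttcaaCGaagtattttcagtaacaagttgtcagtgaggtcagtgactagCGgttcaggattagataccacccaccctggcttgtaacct
PTPRD, chr9:10613003-10613252, minus strand: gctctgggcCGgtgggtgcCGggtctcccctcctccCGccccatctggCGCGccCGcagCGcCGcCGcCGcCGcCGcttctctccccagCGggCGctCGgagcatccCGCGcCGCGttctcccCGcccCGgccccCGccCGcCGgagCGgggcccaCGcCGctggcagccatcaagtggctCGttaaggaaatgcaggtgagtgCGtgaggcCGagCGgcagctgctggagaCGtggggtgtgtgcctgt
RBFOX1 has 24 CG in these 250 bases, CNTNAP2 12, CTNNA3 2 and PTPRD 32. At least 1 CG occurs in 93.9% of the 35116 promoters in the table, whose median is 11, and as many as in PTPRD in 9.52%. MACROD2 has 29, FHIT 11 and DLG2 7. Intervals were thus found within 10 kb of the rounded 5′ end in genes with promoters rich and poor in CG. The promoter richest in CG among the 7 had none near. RefSeq's RBFOX1 gene on GRCh38 is 2.47 Mb long against 1.69 Mb here, so the start used is one inside that longer gene, and its upstream part was not analysed here. The same holds for CTNNA3, the poorest in CG of the 7. RefSeq's gene is 1.85 Mb long against 1.79 Mb here, and the start used lies 1.78 Mb from its end.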

How the data were processed

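ChIP-seq for H3K9me3 was done in 3 states of PC9 cells, with chromatin sheared to 300 to 500 bp and 150 bp reads, per the labels' protocols. The deposited lists hold 1 interval per line with a summit and a mean over its bins, per the file headers; both are the authors' signal and were used only to describe and rank intervals within a list. Per the submitters' processing notes, BWA and SICER were used, as were the hg19 and dm3 builds; versions and roles are not stated there. Which input, threshold and scaling were applied is not given in the sources used here. All starts lie on a grid of 200 bp. A longer list can come from a deeper library, which bears on every count and length.

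The 9 gene bodies were read from a fixed rule, to 0.01 Mb. Covered length was clipped to the body, and an overlap of at least 1 bp counted as shared. Of consecutive 2 Mb windows, the 1440 with an interval in any library served as background, including those over the 9 bodies. A difference of 1.5 times in covered length was taken as higher or lower. Band stains came from circlize 0.4.16 under R 4.3.3. Strands came from RefSeq for 7 genes and from general knowledge for CSMD1 and LRP1B. Other work was done in Python 3.11.15 (scipy 1.17.1, pandas 2.3.3, numpy 2.4.6, with plots from matplotlib 3.10.9). The interval arithmetic was tested on simulated intervals, and 8 of 8 checks returned the known answer.

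All 9 genes are named. Of single intervals, the longest of each gene, the one of highest mean signal in each library and the longest found in 1 library were named by rule; those at 5′ ends and the stretches without intervals were chosen after their values were seen. Members and lists were chosen with earlier results of these data known. Alternatives were an overlap of 50%, intervals above their list's median mean signal, equal numbers of the strongest intervals, joining within 5 kb, removal of intervals up to 2 kb, bodies extended by 100 kb, and omission of the gene within 5 Mb of a chromosome end or of FHIT, CTNNA3 and MACROD2.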

Additional observations from a re-analysis of the deposited data

How the results depend on the processing

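Of 81 values recomputed under other settings, 61 stayed within counting error of the value reported, or for counts of genes within 1.5 times. Outside that range were 19, and 1 turned direction from a ratio reported past 1.5 times. A ratio reported short of 1.5 times that crossed 1 is counted among the 19. For length ratios and factors against the rest, counting error is that of the number of intervals, scaled to the value. It leaves out the spread of interval length. DTP + TSA over parental in length, at 1.34 with such a scaled interval of 0.947 to 1.93, went under 1 in 2 of the settings below. With the 23842 strongest intervals of each list, the DTP over parental length was 0.492 in place of 1.97. DTP + TSA over parental was then 0.416, 21.3% of parental intervals overlapped DTP, 36.7% of those DTP intervals with no parental partner overlapped DTP + TSA, and the bodies stood at 0.170 (DTP) and 0.149 (DTP + TSA) times the coverage of the rest of the genome. Among intervals above their list's median mean signal those factors were 0.122 (parental), 0.169 and 0.143, DTP + TSA over DTP was 0.892, and the shares of parental intervals in DTP and of DTP intervals in parental cells were 29.4% and 12.5%. This setting leaves 17, 40 and 41 intervals. An overlap of 50% gave 40.4% of parental intervals shared with DTP. Without intervals up to 2 kb, DTP + TSA over parental was 0.888 and the DTP + TSA factor against the rest 0.162. Without FHIT, CTNNA3 and MACROD2 the factors were 0.111, 0.235 and 0.177, and DTP + TSA over parental was 2.29. An interval within 5 kb of the 5′ end was present in 1 gene in parental cells. Joining within 5 kb, extending the bodies and leaving out CSMD1 moved none of the 9 pooled values beyond counting error. The bodies were less covered than the rest of the genome in each library under each setting run. Settings chosen after seeing the data were flank lengths, the 5 and 20 kb distances and the omission of MACROD2, FHIT or CTNNA3 alone, which gave DTP over parental 2.23 and 2.41 and DTP + TSA over DTP 0.761. No paired analysis was possible because each state has 1 library. Causes were not tested.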
